A study of Mus musculus with 6 samples.

Results

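The thiol and metal defence of a cell was followed here through 50 listed genes of the thioredoxin, glutathione and metallothionein systems, of which 48 were measured among 19937 genes in all. The list was drawn up for its relevance to mercury, gold and zinc pyrithione compounds, which belong to the classes of drugs that the study screened. A member was measured where the platform's annotation gives its symbol, and no other, to a probe set, and the brightest probe set was read where there were several. Prdx5 and Prdx6 had no such probe set and are not analysed here. The cells were untreated cultures of a pair of mouse pheochromocytoma lines, with 3 arrays of MTT cells and 3 of MPC cells. Pheochromocytoma is a catecholamine-producing tumour of the adrenal medulla. MPC cells came from tumours of NF1 knock-out mice, so both lines share that origin, and MTT cells were derived from liver metastases that MPC cells formed. Each is a single line, and a difference between them is one between these lines. The sources used here give neither the age nor the strain of the animals. The line was taken from the sample title and the cell type label, because the tissue and growth fields name a liver metastasis and MTT cells on all 6 samples. Whether the 3 samples of each line were grown as separate cultures is not stated, and the p-values therefore cover the spread among these samples alone, which may be technical.

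Cells hold reactive oxygen and soft metals in check with a few linked systems. The thioredoxin system passes electrons from NADPH through the selenoenzyme thioredoxin reductase, a target of gold drugs, to thioredoxin and on to peroxiredoxins. The glutathione system imports cystine, builds the tripeptide glutathione from its cysteine, and spends it through peroxidases, glutaredoxins and transferases. Metallothioneins are small proteins rich in cysteine that bind zinc, copper and mercury. The zinc sensor MTF1 drives Mt1 and Mt2 among them through metal response elements. The transcription factor NRF2, which its partner KEAP1 holds back in unstressed cells, drives many of the remaining genes through antioxidant response elements.

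Values are log2 signals from RMA, in which background is removed, arrays are put on one scale and the probes of a set are combined, and a difference is MTT minus MPC on that scale. Probe sets differ in brightness for the same amount of RNA, so signals of different genes are not compared. The median signal over all probe sets was 7.73 to 7.77 on the 6 arrays. As a mark of background, the 1027 measured olfactory receptor genes had a median of 5.16 and a 95th percentile of 7.15, and 67.7% of all genes lay above the latter. Gpx8, Sod3 and Mgst1 lay under this mark in both lines and were not shown above background. Of 16 measured chromaffin markers, 15 lay above the mark, with Th at 13.46 in MTT and 13.49 in MPC cells and Pnmt the exception. In MTT cells 3 were called as higher, namely Scg2, Slc18a1 and Gata3, at differences of 0.55, 0.27 and 0.19. Another 4 were called as lower, namely Insm1, Slc6a2, Cyb561 and Chgb, at -0.30, -0.25, -0.17 and -0.15. Of all genes 3.93% were called as higher and 3.94% as lower. Under the mark lay 8 of 11 hepatocyte markers, Alb among them, 6 of 8 of the adrenal cortex, 4 of 6 of leukocytes, 3 of 5 of endothelium and 2 of 7 of fibroblasts. None of the markers of these other cell types differed between the lines by limma at an adjusted p under 0.05, and 3 had an unadjusted p under 0.05. In RNA of a whole culture, less RNA in every cell and loss from a share of the cells cannot be told apart.

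Of the 48 measured members, 5 were lower in MTT than in MPC cells and 1 was higher (limma, Benjamini-Hochberg adjusted p under 0.05 over all genes). The metallothionein Mt3 fell 1.72-fold, the plasma glutathione peroxidase Gpx3, the transferase Gsta4, the thioredoxin inhibitor Txnip and the mitochondrial peroxiredoxin Prdx3 fell 1.14- to 1.29-fold, and the cystine importer Slc7a11 rose 1.23-fold. These 6 calls were 12.5% of the members, against 7.87% of all genes. In the 2 directions the shares were 10.4% lower, against 3.94% of all genes, and 2.08% higher, against 3.93%. Brighter genes are called more often: at or above the median signal of all genes, 12.2% were called and 6.04% were called as lower, and 4 of the 41 members there, or 9.76%, were called, each as lower. No member differed by 2-fold. The median absolute difference was 0.053 over members and 0.050 over all genes, and the median SD within a line was 0.045 over members. For the 42 members not called, no 95% interval of the difference reached past 0.34 on the log2 scale in either direction, which is 1.27-fold. The arrays of the lines did not overlap for 18 members, 7 higher and 11 lower in MTT cells, which is 37.5% against 27.2% of all genes. This share was not computed for genes at or above the median signal, so the excess is not read as a trait of the members.

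**Figure D1:**
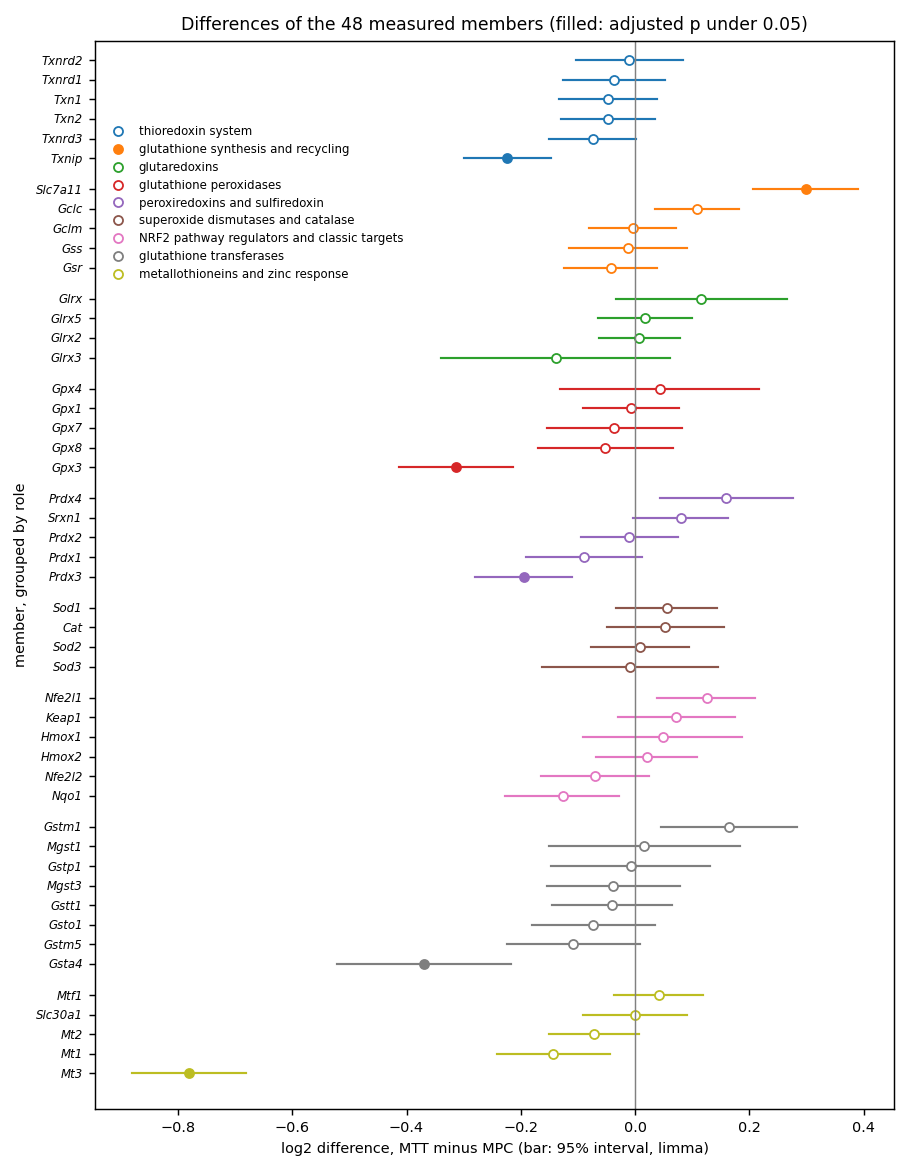
log2 difference, MTT minus MPC (horizontal axis), of the 48 measured members (vertical axis), grouped and coloured by role. Points are differences of means of 3 arrays per line, bars are 95% intervals from limma, and filled points have an adjusted p under 0.05. Mt3 lies at -0.78 and Slc7a11 at 0.30, and most intervals include 0.

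The metallothioneins and the zinc response held the most marked change among the members. Mt3, the metallothionein best known from brain, gave log2 signals of 10.34, 10.48 and 10.44 in MTT cells and 11.19, 11.21 and 11.20 in MPC cells. Every MTT array lay below every MPC array, and the gap was many times the spread within a line. The difference was -0.78 (standard error 0.043, limma adjusted p = 3.07e-05). Mt1, inducible by zinc in most tissues, read 12.51, 12.47 and 12.37 in MTT and 12.59, 12.60 and 12.59 in MPC cells, a difference of -0.14 (95% interval -0.24 to -0.04) that did not pass (limma adjusted p = 0.0942). Mt2, its neighbour and close relative, read 13.22, 13.17 and 13.20 against 13.26, 13.25 and 13.31, a difference of -0.072 (95% interval -0.15 to 0.007). For Mt1 and Mt2 too the arrays of the lines did not overlap, with MTT below. Mtf1, which encodes the zinc sensor, read 9.40, 9.40 and 9.38 in MTT and 9.31, 9.37 and 9.37 in MPC cells (difference 0.041, limma adjusted p = 0.567). Slc30a1, a zinc exporter of the plasma membrane and a known MTF1 target, read 9.11, 9.05 and 9.03 against 9.12, 9.02 and 9.06, with a difference of -0.001 and a 95% interval of -0.092 to 0.090. Its arrays lay at the same level in both lines.

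The promoters of Mt1, Mt2 and Slc30a1 are shown because MTF1 acts on these genes through short sites. That of Mt3 is set beside them, and whether MTF1 acts on Mt3 was not tested. They are from RefSeq (GRCm38.p6) and run from 250 bases before to 50 after the annotated start, 5′ to 3′ on the plus strand, on which all 4 genes lie. Capitals mark matches on either strand to the metal response element core, TGCACNC or TGCGCNC.
Mt3, chr8:94152357-94152656: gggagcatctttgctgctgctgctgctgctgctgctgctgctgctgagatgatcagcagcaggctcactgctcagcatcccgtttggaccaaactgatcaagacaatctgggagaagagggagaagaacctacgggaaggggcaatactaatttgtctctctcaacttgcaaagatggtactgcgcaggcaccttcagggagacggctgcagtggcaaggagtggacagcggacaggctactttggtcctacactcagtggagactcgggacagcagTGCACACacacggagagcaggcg
Mt2, chr8:94172368-94172667: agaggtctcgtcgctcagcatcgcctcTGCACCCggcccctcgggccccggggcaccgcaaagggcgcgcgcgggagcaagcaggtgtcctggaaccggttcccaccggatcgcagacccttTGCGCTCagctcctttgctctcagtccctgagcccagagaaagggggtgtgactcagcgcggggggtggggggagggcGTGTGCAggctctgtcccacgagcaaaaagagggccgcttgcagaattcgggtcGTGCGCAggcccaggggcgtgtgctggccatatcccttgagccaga
Mt1, chr8:94178839-94179138: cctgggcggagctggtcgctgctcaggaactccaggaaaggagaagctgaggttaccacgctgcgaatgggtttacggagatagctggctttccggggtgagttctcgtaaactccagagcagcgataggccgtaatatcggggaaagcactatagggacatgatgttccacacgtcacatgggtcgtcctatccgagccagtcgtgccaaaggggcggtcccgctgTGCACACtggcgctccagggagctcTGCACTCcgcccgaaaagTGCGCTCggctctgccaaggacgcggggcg
Slc30a1, chr1:191906531-191906830: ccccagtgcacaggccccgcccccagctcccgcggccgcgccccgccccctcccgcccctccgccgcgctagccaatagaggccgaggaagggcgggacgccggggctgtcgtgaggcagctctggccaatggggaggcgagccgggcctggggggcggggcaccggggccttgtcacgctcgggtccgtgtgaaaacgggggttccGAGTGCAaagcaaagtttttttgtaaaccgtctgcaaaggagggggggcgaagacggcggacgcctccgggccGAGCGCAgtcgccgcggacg
The window of Mt2 held 4 matches, that of Mt1 held 3, that of Slc30a1 held 2 and that of Mt3 held 1. Of all 32851 promoter windows in the table, 25.7% held at least 1 match and 1.97% held 3 or more. Mt1, Mt2 and Slc30a1 were not called, and whether the number of matches bears on the differences was not tested. A match is a stretch of letters and not a measured binding site.

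The metallothionein genes lie side by side on chromosome 8, whose genes had a median difference of -0.016. Mt3 stands between Mt4 and Mt2 among measured genes. Mt4, a metallothionein of squamous epithelium, read 6.98 in MTT and 7.01 in MPC cells, under the mark of background. Of the 5 measured genes beyond Mt4, Bbs2 was called, at 10.26 in MTT and 10.47 in MPC cells (difference -0.21, limma adjusted p = 0.00659), and of the 5 beyond Mt1 none was. These neighbours were added after the values of Mt3 had been seen.

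**Figure D2:**
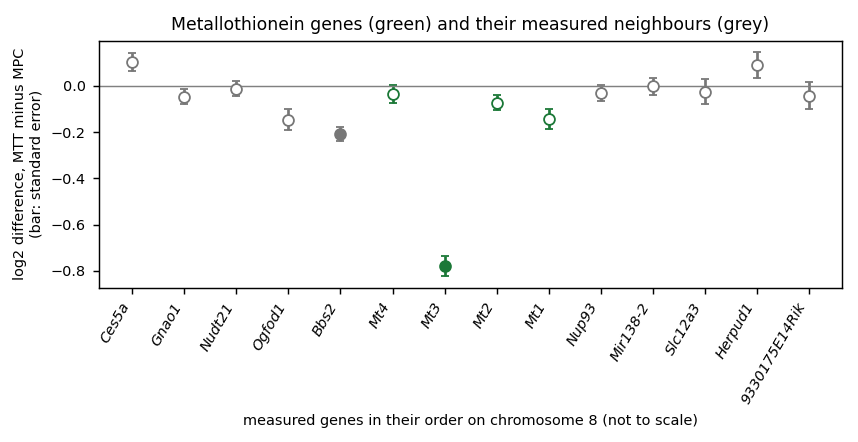
log2 difference, MTT minus MPC (vertical axis), of the 4 metallothionein genes (green) and the 5 measured genes on each side of them (grey), in their order on chromosome 8 (horizontal axis, not to scale). Bars are standard errors from limma and filled points have an adjusted p under 0.05. Mt3 lies at -0.78 and Bbs2 at -0.21, and the other genes lie between -0.15 and 0.10.

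Of 6 members of the thioredoxin system, 1 was called. Txnip, which binds thioredoxin and blocks it and which also curbs glucose uptake, read 10.90, 10.85 and 10.88 in MTT and 11.11, 11.12 and 11.07 in MPC cells. The MTT arrays all lay below the MPC arrays, and the difference was -0.22 (standard error 0.033, limma adjusted p = 0.00551). Txnrd1, the cytosolic thioredoxin reductase and target of auranofin, read 11.62, 11.52 and 11.60 in MTT cells and 11.59, 11.63 and 11.63 in MPC cells. Its arrays overlapped, with a difference of -0.037 (95% interval -0.13 to 0.053). Txnrd2, the mitochondrial reductase, read 8.73, 8.68 and 8.62 against 8.73, 8.69 and 8.64, a difference of -0.011 (95% interval -0.10 to 0.083). Txnrd3, the reductase best known from testis, had a difference of -0.074 (limma adjusted p = 0.252), and Txn1 and Txn2, the cytosolic and mitochondrial thioredoxins, had -0.047 each. No member of this group other than Txnip passed.

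Of 5 members of glutathione synthesis and recycling, 1 was called. Slc7a11, the subunit of the cystine-glutamate exchanger that carries the transport, read 8.02, 8.04 and 7.93 in MTT and 7.73, 7.67 and 7.69 in MPC cells. Every MTT array was higher than every MPC array, and the difference was 0.30 (standard error 0.040, limma adjusted p = 0.00344). The mean signals, 7.99 and 7.70, lie above the mark of background and below the median of all genes, 8.28. Gclc, the catalytic subunit of the enzyme that limits glutathione synthesis, read 12.34, 12.35 and 12.31 in MTT and 12.24, 12.23 and 12.20 in MPC cells. Its arrays did not overlap, at a difference of 0.11 (95% interval 0.034 to 0.18) that did not pass (limma adjusted p = 0.0916). Gclm, the modifier subunit, read 11.81, 11.77 and 11.77 against 11.81, 11.80 and 11.76, a difference of -0.004 (95% interval -0.081 to 0.072). Gss, glutathione synthetase, had a difference of -0.013 and Gsr, glutathione reductase, one of -0.042.

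The peroxide-reducing members held 2 calls. Gpx3, the secreted selenium-containing glutathione peroxidase, read 8.04, 7.97 and 7.95 in MTT and 8.33, 8.34 and 8.24 in MPC cells, with no overlap. The difference was -0.31 (standard error 0.043, limma adjusted p = 0.00400). The other 4 peroxidases, Gpx1, Gpx4, Gpx7 and Gpx8, had differences from -0.052 to 0.043, with a smallest adjusted p of 0.638. Prdx3, the peroxiredoxin of mitochondria, read 11.72, 11.66 and 11.64 in MTT and 11.83, 11.89 and 11.89 in MPC cells, a difference of -0.20 (standard error 0.037, limma adjusted p = 0.0163). Prdx3 lies on chromosome 19, where 111 of 678 genes were called as lower and the median difference was -0.060. After each array was centred on the median of the brighter genes of a chromosome, its difference was -0.083 and the call ended (adjusted p = 0.317). Prdx4, the peroxiredoxin of the endoplasmic reticulum, went the other way at 10.17, 10.18 and 10.03 in MTT and 9.93, 10.03 and 9.94 in MPC cells. The lowest MTT array stood above the highest MPC array by less than the second decimal, both reading 10.03, and the difference of 0.16 (95% interval 0.043 to 0.28) did not pass (limma adjusted p = 0.112). It passed without MTT replicate 3 (difference 0.21, adjusted p = 0.0457), after centring by chromosome (0.20, adjusted p = 0.0459), when variances followed the mean signal (adjusted p = 0.0312) and when genes under the median signal were left out (adjusted p = 0.0332). Srxn1, which restores overoxidised peroxiredoxins, had a difference of 0.080, Prdx1 one of -0.090 and Prdx2 one of -0.010. The probe sets read for Prdx1 and Prdx2 have numbers that fall among those of other chromosomes. That of Gpx4 may lie at a pseudogene copy.

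Among the glutathione transferases, which join glutathione to electrophiles, 1 of 8 members was called. Gsta4, which takes 4-hydroxynonenal, a product of lipid peroxidation, as its substrate, read 9.77, 9.69 and 9.57 in MTT cells and 10.01, 10.16 and 9.97 in MPC cells. The arrays did not overlap, and the difference was -0.37 (standard error 0.066, limma adjusted p = 0.0124). Gstm1, a transferase of the mu class, read 9.87, 9.76 and 9.78 in MTT and 9.73, 9.64 and 9.56 in MPC cells, also without overlap and in the opposite direction, at 0.16 (limma adjusted p = 0.106). Transferases of the mu class resemble each other closely, so probes of Gstm1, Gstm5 and Gstm6 may read in part the RNA of a relative. Gstm5 had a difference of -0.11 and the pi class member Gstp1 one of -0.008. Gstt1, Gsto1, Mgst1 and Mgst3 had differences from -0.073 to 0.016.

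**Figure D3:**
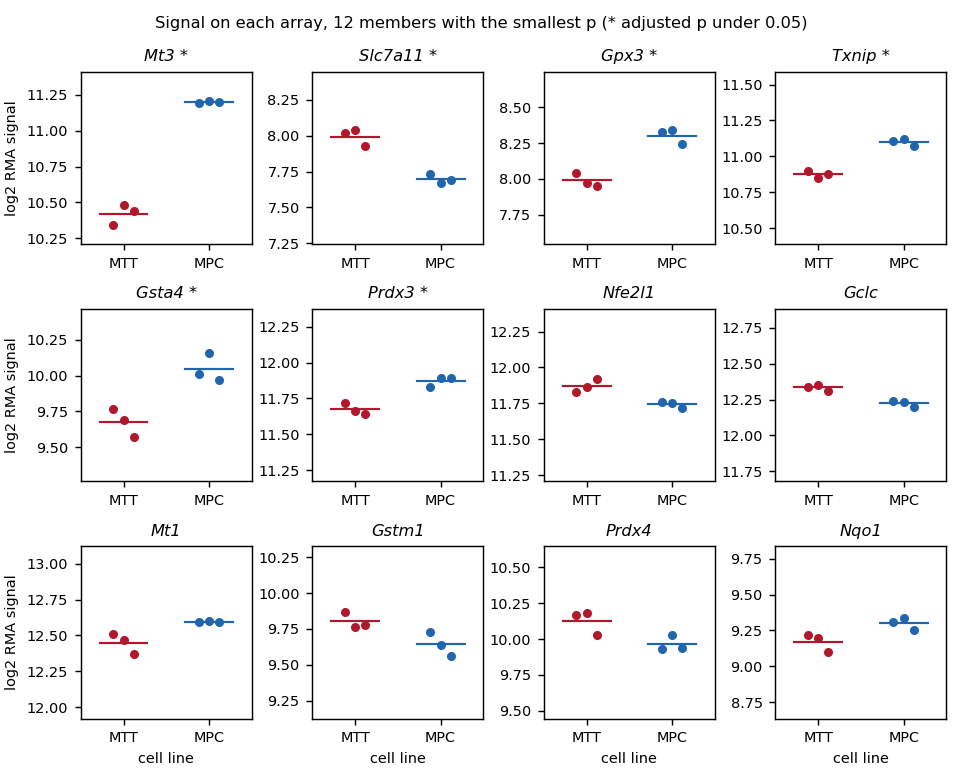
log2 RMA signal (vertical axes, each spanning 1.2) on the 3 MTT arrays (red) and 3 MPC arrays (blue) of the 12 members with the smallest p. Points are arrays, lines are means, and a star marks an adjusted p under 0.05. The MTT and MPC means are 10.42 and 11.20 for Mt3, and for Prdx4 the lowest MTT array is level with the highest MPC array.

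None of the 6 members grouped as NRF2 regulators and classic targets passed limma's test, and 2, Nfe2l1 and Nqo1, had an unadjusted p under 0.05. Nfe2l1 passed with a mean-variance trend, and both passed when genes under the median signal were left out. Nfe2l2, which encodes NRF2, read 11.38, 11.25 and 11.30 in MTT and 11.40, 11.39 and 11.35 in MPC cells (difference -0.070, 95% interval -0.17 to 0.024). Keap1 read 10.00, 9.96 and 9.95 against 9.97, 9.90 and 9.82 (difference 0.072, 95% interval -0.030 to 0.17). In both genes the arrays of the lines overlapped. Nfe2l1, a relative of NRF2 that also drives proteasome genes, read 11.83, 11.86 and 11.92 in MTT and 11.76, 11.75 and 11.72 in MPC cells, without overlap, at a difference of 0.12 (limma adjusted p = 0.0915). Nqo1, a quinone reductase widely used as a readout of NRF2, read 9.22, 9.20 and 9.10 against 9.31, 9.34 and 9.25. Its MTT arrays lay below its MPC arrays, at a difference of -0.13 (limma adjusted p = 0.135). Hmox1, the inducible heme oxygenase, read 9.36, 9.32 and 9.19 in MTT and 9.34, 9.24 and 9.15 in MPC cells, with overlap and a difference of 0.048. Its constitutive relative Hmox2 had a difference of 0.021.

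The glutaredoxins, superoxide dismutases and catalase held no call by limma, and none had an unadjusted p under 0.05. Sod1 and Sod2, the cytosolic and mitochondrial superoxide dismutases, had differences of 0.055 and 0.008, and Cat, catalase, had 0.053. Among 4 glutaredoxins the differences ran from -0.14 to 0.12, and each end moved when one array was left out, a different array for each. Glrx3, which handles iron-sulfur clusters, read 9.42, 9.36 and 9.32 in MTT cells and 9.61, 9.62 and 9.28 in MPC cells. MPC replicate 3 stood below all MTT arrays, and without it the difference was -0.25 and passed (adjusted p = 0.0159). Glrx, the cytosolic glutaredoxin, read 8.99, 9.02 and 8.77 in MTT and 8.86, 8.78 and 8.80 in MPC cells, and without MTT replicate 3 its difference was 0.19 and passed (adjusted p = 0.0472). Glrx lies on chromosome 13, where 249 of 735 genes were called as higher, and after centring by chromosome its difference turned to -0.060 (adjusted p = 0.638).

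The antioxidant response element core, searched as TGACNNNGC on both strands, stood in the promoter window of 10 of the 43 measured members that the RefSeq table holds. That is 23.3%, against 14.0% of all 27025 genes in the table. The holders were Gclm, Srxn1, Nfe2l2, Txnrd1 (in 1 of its 3 windows), Prdx1, Sod1, Gstm5, Mgst1, Mt2 and Slc30a1, and 5 called members are in the table, too few to read their share. The metal response element core stood in the windows of 17 of the 43 members, or 39.5%, against 28.2% of all genes, and in those of 2 of the 5 called members, Mt3 and Txnip. The window covers only 300 bases, so the letters may stand elsewhere.

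Genes around these systems were read from 8 further lists, and 24 of their 182 measured genes were called, 13 higher and 11 lower, which is 13.2% against the 7.87% of all genes. At or above the median signal it was 18 of 130, or 13.8%, against 12.2% of all genes there, so the share lay near its background, and the 24 calls were 13 without MTT replicate 1. The transferase Gstk1, found in mitochondria and peroxisomes, was called among 18 measured transferases outside the members. It read 7.34, 7.27 and 7.27 in MTT and 6.20, 6.04 and 6.28 in MPC cells, and the arrays of the lines did not overlap (higher in MTT, limma adjusted p = 2.86e-05). Its MPC signal lies under the mark of background and its MTT signal just above it, so the size of the difference is not given as measured. Gstm6 was called as higher with both means, 7.14 and 6.72, under that mark, and the call ended without MTT replicate 1 (adjusted p = 0.0524) and with ordinary variances. No other transferase of this list was called.

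Of 23 measured genes of cysteine and methionine supply, 2 were higher, 3 were lower and 18 were not called. Slc1a4, an importer of neutral amino acids, rose by 0.31 and the glutamine importer Slc1a5 fell by 0.34. Both calls ended with ordinary variances (adjusted p = 0.0575 and 0.107). Mpst, which makes sulfide from a cysteine product, fell by 0.24 and did not pass in 5 of the 6 fits that left out an array. Slc3a2, the heavy chain that partners Slc7a11, had a difference of 0.075 (limma adjusted p = 0.287). Cbs, which starts the route from homocysteine to cysteine, fell by 0.17, a call that ended without MTT replicate 1 or 2 or MPC replicate 2. Mtrr, which keeps methionine synthase active, rose by 0.27, a call that ended without MTT replicate 1 or 2, with ordinary variances and after centring by chromosome. It too lies on chromosome 13. Of 15 genes of NADPH supply, 1 was higher: Aldh1l2, a mitochondrial folate enzyme, rose by 0.23.

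Among 34 partners and other targets of NRF2, 2 were higher and 4 lower. The epoxide hydrolase Ephx1 fell by 0.28, the aldehyde oxidase Aox1 by 0.29, Pir by 0.24 and Osgin1 by 0.24. Pir and Osgin1 were not called with ordinary variances (adjusted p = 0.0522 and 0.0945). Osgin1 was also not called without MTT replicate 1 or 3 or MPC replicate 1. Those higher were Sqstm1, the autophagy adaptor p62, at 0.18, and Akr1c13, with both means under the mark of background. Akr1c13 lies on chromosome 13, and its difference of 0.22 was 0.048 and not called after centring by chromosome. When single arrays were left out, Sqstm1 passed in none of the 6 fits and Akr1c13 in 1. None of 10 genes of selenoprotein synthesis was called, with 0 at an unadjusted p under 0.05. Of 16 further selenoproteins, Selenop, which carries selenium in plasma, rose by 0.33 and Selenok and Dio2 were lower, at differences of -0.15 and -0.21. The call of Selenok ended in each of the 6 fits without 1 array and that of Dio2 in 5 of them. That of Selenop ended with ordinary variances (adjusted p = 0.0527). Of 30 genes of zinc and copper transport, 2 were higher. Slc30a5, a zinc transporter of the secretory pathway on chromosome 13, rose by 0.19, and after centring by chromosome its difference was 0.016. Slc39a6, a zinc importer, rose by 0.17 and did not pass in 5 of those 6 fits.

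Of 36 other proteins with a thioredoxin fold or tied to one, 3 were higher and 2 lower. Nxn, nucleoredoxin, had a mean signal of 8.82 in MTT cells (SD 0.010, n = 3) and of 9.20 in MPC cells (SD 0.048, n = 3), with no overlap between the lines (difference -0.38, limma adjusted p = 0.000547). Txndc16 fell by 0.15 and passed in none of the 6 fits that left out an array. Arrdc3, an arrestin-domain relative of Txnip, rose by 0.21, while Arrdc4, another such relative, had a difference of 0.045. Txndc5, of the endoplasmic reticulum, rose by 0.35 and Txndc15 by 0.29. Arrdc3, Txndc5 and Txndc15 lie on chromosome 13, and their calls ended after centring by chromosome, at differences of 0.031, 0.17 and 0.12 in that order. Those of Txndc5 and Txndc15 also ended with ordinary variances (adjusted p = 0.0612 and 0.1). Slc3a2, Arrdc4, Mpst, Sqstm1, Akr1c13 and Txndc16 were named after their values were seen.

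**Figure D4:**
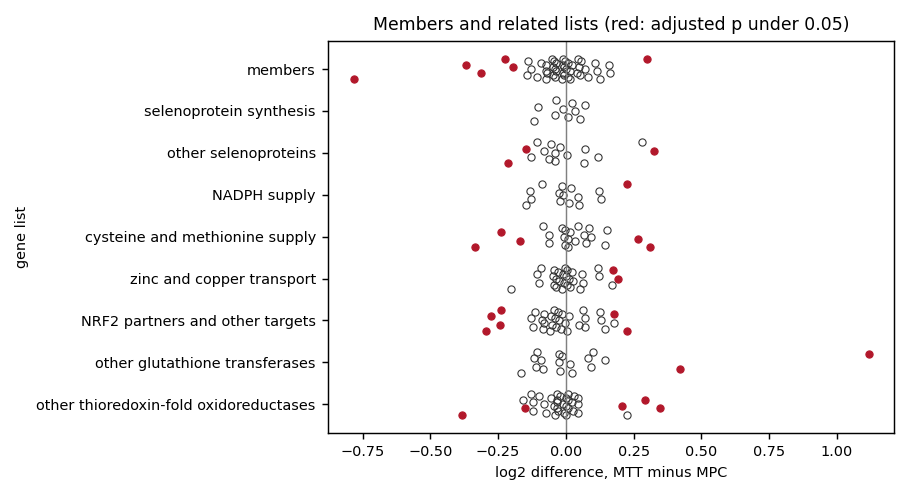
log2 difference, MTT minus MPC (horizontal axis), of the members and of the genes of the 8 related lists (vertical axis). Each point is 1 gene, and red points have an adjusted p under 0.05. Among the members Mt3 lies at -0.78 and Slc7a11 at 0.30. The 2 red points of the other transferases are Gstk1 and Gstm6, whose MPC signals lie under the mark of background, so their positions are not measured sizes.

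Across the members, 4 calls held in every fit that tested the gene: Mt3, Txnip, Gpx3 and Slc7a11 passed without any 1 of the 6 arrays, and under each of the other alternatives. The call of Gsta4 ended with ordinary variances (adjusted p = 0.118) and held otherwise. That of Prdx3 ended in 5 of 16 alternatives. They are centring by chromosome, ordinary variances (adjusted p = 0.0608) and leaving out MTT replicate 2 or 3 or MPC replicate 2 (adjusted p 0.0627 to 0.0720). The remaining 6 of the 12 members with the smallest p, Nfe2l1, Gclc, Mt1, Gstm1, Prdx4 and Nqo1, were not called as reported. With a mean-variance trend all of these but Nqo1 were called (adjusted p 0.00647 to 0.0319), and when genes under the median signal were left out all 6 were (adjusted p 0.0206 to 0.0414).

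**Figure D5:**
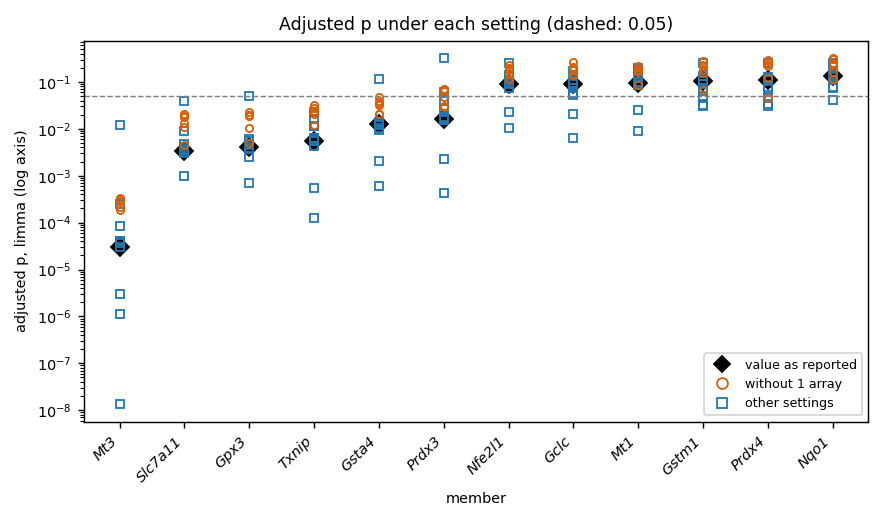
Adjusted p from limma (vertical log axis) of the 12 members with the smallest p (horizontal axis) as reported (black), in the 6 fits without 1 array (orange circles) and under the other alternatives (blue squares). The dashed line is 0.05. All points of Mt3, Slc7a11, Gpx3 and Txnip lie below it, and those of the 6 members on the right lie on both sides.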

How the data were processed

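RNA from 3 samples of MTT and 3 of MPC cells was measured on the Mouse Gene 1.0 ST array (Affymetrix). The authors deposited log2 values after RMA (background subtraction, quantile normalization, summary by probe set); the methods name Partek and R, the processing notes Affymetrix Expression Console, with no version stated. The values had not been turned into the Z-scores that the methods mention. Of 34760 probe sets, 21640 have exactly 1 symbol, which gave 19937 genes by the brightest probe set. Lines were compared across all genes with limma 3.58.1 (lmFit, eBayes, two-sided, Benjamini-Hochberg) in R 4.3.3; figures used matplotlib 3.10.9. The fit was tested on simulated data, where it recovered 100 of 100 changes of 1 on the log2 scale and 51 of 100 of 0.25. Of its 159 calls there, 8 were false. The real data gave 1569 calls, so the share recovered in the simulation need not hold for the members. A member not called may still differ by a small amount within its interval from limma. Among the members not called, that interval reached 0.25 in either direction for Glrx3, Gstm1, Prdx4 and Glrx alone. Their outer bounds were -0.34, 0.283, 0.276 and 0.266 in that order. The RefSeq table (GRCm38.p6) gave names, chromosomes, gene order and promoters. The array number limits precision.

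The members and lists were chosen with earlier results of these data known. Full values are given for members called, for the 12 with the smallest p and for targets and sensors of metal and gold compounds, and of related genes at most 4 called per list. Alternatives were ordinary variances (the 2-group ANOVA of the methods), a mean-variance trend, robust moderation, a replicate block, the mean of probe sets, all probe sets, a filter on dim genes, cyclic loess, median centring, centring by chromosome and leaving out each array.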

Additional observations from a re-analysis of the deposited data

How the results depend on the processing

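The 5 lower members and 1 higher member were counted again under 16 alternatives. With ordinary variances 3 were lower, with a mean-variance trend 5 were higher, among genes at or above the median signal 4 were higher (Slc7a11 and Gpx3 lie under that median and were not tested there), and after centring by chromosome 2 were higher. Mt1 was gained as lower with the trend and with the filter on signal, and Nqo1 was gained as lower with the filter. The share of all genes called was 12.1% with the trend and 22.1% with the filter, against 7.87% as reported. Without 1 array, 1 to 3 members were higher, the 3 without MTT replicate 3. Over the related lists 24 genes were called, against 11 with ordinary variances and 41 with a mean-variance trend, and 13 to 18 without 1 array, the 13 without MTT replicate 1. All other counts were within 1.5 times those reported, and no called difference changed sign. Over all genes 1569 were called, and 824 with ordinary variances, 2416 with the trend, 2207 of 9969 with the filter, 1064 without MPC replicate 1, 1004 without MPC replicate 2, and 924, 891 and 994 without MTT replicates 1, 2 and 3.

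Whether the replicate numbers of the lines pair the samples is not known. Residuals of same-numbered arrays correlated at 0.095, 0.075 and 0.227 across genes, the last for replicate 3. Replicate 3 of either line correlated at -0.146 to -0.118 with differently numbered arrays of the other line. The remaining differently numbered arrays correlated at 0.070 and 0.075. With a replicate block 1 member was higher and 5 were lower, as without it and with the same genes, and 25 related genes were called. Of the 24 related calls 20 were kept, those of Selenok, Dio2, Akr1c13 and Txndc16 were lost, and 5 were gained. Signals near background can compress differences on an array, and whether this limited Gpx8, Sod3 and Mgst1 was not tested.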

Other observations

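Prdx1, Prdx2 and Gpx4 each had 2 probe sets with the same gene symbol and much the same accessions. RefSeq lists pseudogene copies of all 3, so the probe set read need not lie at the gene itself. The number of the brighter Prdx1 probe set lies between those of Txnrd2 and Sod1, on chromosome 16, and Prdx1 lies on chromosome 4. That of Prdx2 lies between Glrx2 and Mgst3, on chromosome 1, and Prdx2 lies on chromosome 8. The number of the dimmer Prdx2 probe set lies between those of Hmox1 and Mt3, on chromosome 8. That of the dimmer Prdx1 probe set lies nearest to Mtf1, on chromosome 4. By these numbers, the values given for Prdx1 and Prdx2 come from probe sets away from the genes. For Gpx4 the place is uncertain. The brighter and dimmer probe sets had differences of -0.09 and -0.09 for Prdx1, -0.01 and 0.01 for Prdx2, and 0.04 and 0.09 for Gpx4. By place in the cell, of 6 members of mitochondria (Txnrd2, Txn2, Prdx3, Glrx2, Glrx5 and Sod2) Prdx3 alone was called, and of 6 selenoprotein members (Txnrd1, Txnrd2, Txnrd3, Gpx1, Gpx3 and Gpx4) Gpx3 alone was. Both groupings were made after the values were seen. Of 7 members on chromosome 8, Mt3 alone was called. Gpx8, on chromosome 13 and not shown above background, had a difference of -0.052, and after centring by chromosome one of -0.23 (limma adjusted p = 0.0284). The centring takes off the shift of the brighter genes of the chromosome. Whether a gene at background carries that shift was not tested, so the -0.23 is not read as a change of Gpx8.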
